A study of Mus musculus with 6 samples.

Results

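Protocadherins are cadherin-type adhesion proteins of the cell surface, and 35 of the 18194 genes on the arrays were named as such, by probe sets whose only gene symbol begins with Pcdh. They comprised all 22 genes of the beta cluster, 1 gene of the gamma cluster (Pcdhgc4) and 12 genes that stand alone, read by 62 probe sets. Each gene was given the probe set with the highest mean over all 6 arrays. The values are log2 probe set intensities, so a difference of 1 is a doubling.

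Most protocadherins lie in 3 neighbouring clusters called alpha, beta and gamma. Each variable exon there has its own promoter, a neuron switches on a small set of them, and CTCF with cohesin helps to choose which. Alpha and gamma transcripts are spliced to constant exons that encode a shared cytoplasmic tail, whereas each beta gene makes its protein from a single exon. The proteins bind copies of themselves on the neighbouring cell and so let neurites tell self from non-self. Protocadherins outside the clusters, chiefly the delta group, steer cell sorting and axon growth, and several recruit the WAVE complex, an activator of actin assembly. Endocrine islet cells share many neuronal genes.

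RNA came from MIN6 cells, an insulin-secreting mouse beta-cell line, and from pancreatic islets of C57BL/6 mice. The MIN6 cells of all 4 arrays had been infected for 48 h at 250 infectious units of virus per cell, with 2% serum and 4.5 g/l glucose in the medium. The adenovirus expressed miR-7a (AdmiR7a, 2 arrays), miR-7b (AdmiR7b, 1 array) or, as control, green fluorescent protein (AdGFP, 1 array). The 2 islet arrays came from mice with miR-7a2 deleted in beta cells by Cre and lox (KO, 1 array) and from wild-type controls (WT, 1 array). The labels do not give the driver of Cre, the age of the mice or how many were pooled, and other islet cells keep miR-7a2. The AdmiR7a arrays are described as duplicate infections, without saying whether the cultures were separate, so their spread may be technical.

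The microRNAs delivered are shown because every MIN6 comparison rests on them; the sequences are from RefSeq (GRCm38.p6), with the seed, bases 2 to 8, in capitals.
mmu-miR-7a-5p: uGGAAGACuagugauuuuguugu
mmu-miR-7b-5p: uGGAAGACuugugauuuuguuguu
Both carry the same seed. Counted from the 5′ end of miR-7a, miR-7b differs from it by 1 substitution (A10U) and has 1 further base at its 3′ end. Mature miR-7a-5p is encoded by 2 genes, Mir7-1 and Mir7-2 (chr7:78888295-78888317, plus strand), and miR-7b-5p by Mir7b (chr17:56243017-56243040, plus strand). The deletion of miR-7a2 therefore leaves Mir7-1 and Mir7b in place.

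Of the 35 protocadherins with a probe set of their own, a minority were measured above background. RefSeq held 70 genes whose symbol begins with Pcdh, 14 of them alpha and 22 gamma. The 35 hold no alpha gene and 1 gamma gene, so the shares given here do not cover those clusters. Probe sets with several alpha symbols are given further on. A mean of 4 (log2), the level used to call a gene measured, was reached by 11 of the 35 genes in MIN6 cells (31.4%, against 57.0% of all genes) and by 10 in islets (28.6%, against 58.0%). In all, 14 reached it in either system: 7 in both, 4 in MIN6 only and 3 in islets only. Nearest to the level were Pcdhb21 just inside it in MIN6 (mean 4.01) and Pcdhgc4 just outside (3.90). In islets Pcdh1 (4.47) was nearest inside and Pcdhb15 (3.84) nearest outside. The other 21 genes, 15 of the beta cluster and 6 that stand alone (Pcdh8, Pcdh10, Pcdh11x, Pcdh12, Pcdh18 and Pcdh20), had no array above 3.85 and are given by this range. The lowest value of the table, 2.17, was shared by 28.8% to 30.1% of the probe sets of each array, and values there have no order.

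**Figure D1:**
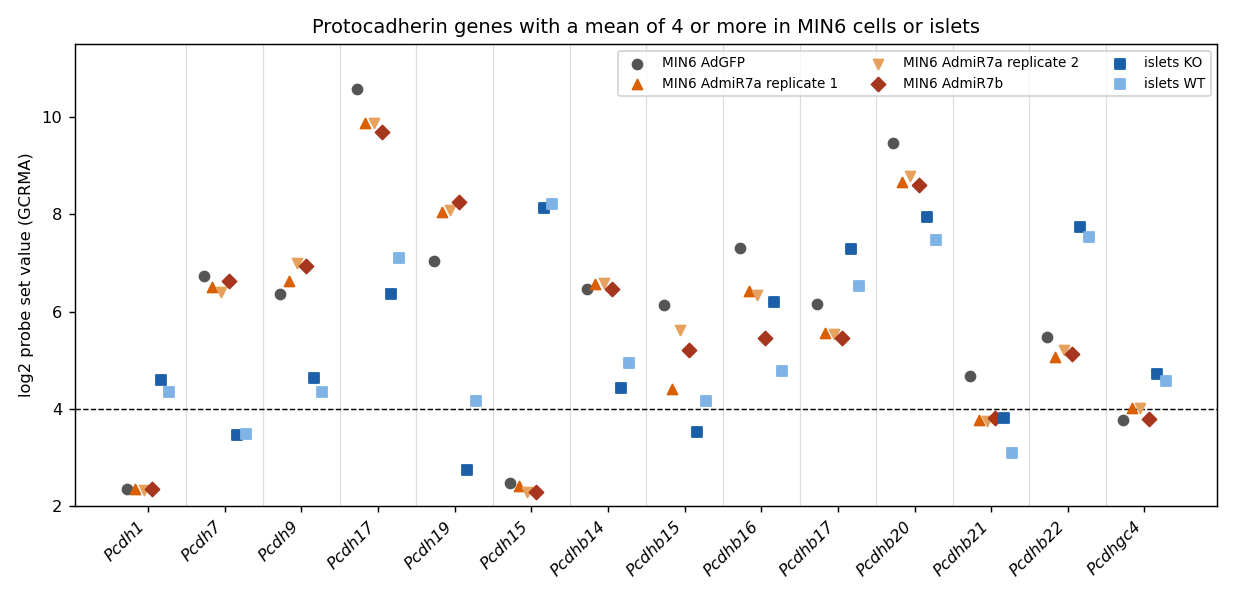
Log2 values of the 14 protocadherin genes with a mean of 4 or more in MIN6 cells or islets, 1 point per array; the dashed line marks 4. Values may be compared between arrays within a gene, not between genes. For Pcdh15 the 2 islet points (8.12 and 8.20) stand far above the 4 MIN6 points, and for Pcdh19 the MIN6 points stand above both islet points.

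The measured beta cluster genes lay together at 1 end of the cluster. In chromosomal order the alpha cluster comes first, then beta, then gamma. None of the first 13 beta genes, Pcdhb1 to Pcdhb13, had a value above 2.81 on any array, that is, near the lowest value of the table. Of the 9 genes nearest the gamma cluster, 7 reached the level: Pcdhb14, Pcdhb15, Pcdhb16, Pcdhb17, Pcdhb20, Pcdhb21 and Pcdhb22. Pcdhb18 and Pcdhb19 lay among them and did not. This is a description of probe set values, and a gene near the lowest value may have a probe set that does not read its transcript. Pcdhb14 and Pcdhb15 were measured only by probe sets of the classes _x_at and _s_at, which can bind related transcripts. Their other probe sets had no value above 2.73, so which beta transcripts these 2 probe sets read is uncertain.

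**Figure D2:**
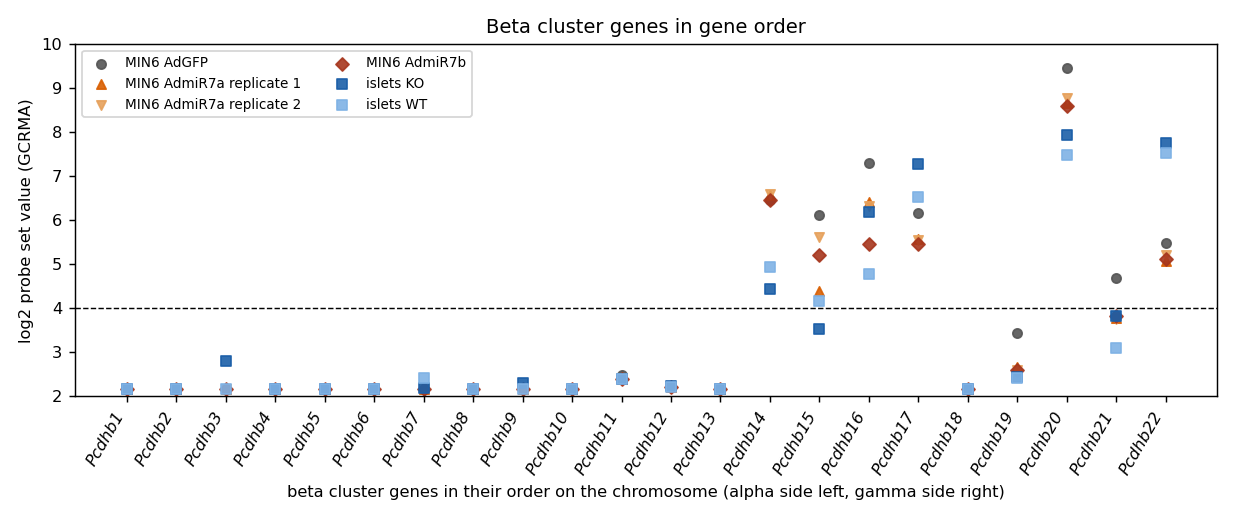
Log2 values of the 22 beta cluster genes in chromosomal order, 1 point per array, with the alpha side at the left; the dashed line marks 4. Pcdhb1 to Pcdhb13 stay at or below 2.81, and the genes that reach 4 lie between Pcdhb14 and Pcdhb22.

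MIN6 cells and islets differed in which protocadherins they held. Of the 14 measured genes, 11 differed by at least 1 (log2) between the system means with no overlap of arrays, 7 of them higher in MIN6 and 4 higher in islets. Of the 14, 7 reached 4 in 1 system alone, so part of this count follows from the level. The background over 11155 genes was 41.3%: 19.6% of genes were higher in MIN6 and 21.7% higher in islets. The arrays of a system carry different vectors or genotypes and so are not replicates, and this comparison has no test. Islets also hold cells that MIN6 lacks, and in bulk RNA fewer cells of a type cannot be told apart from less RNA per cell. Of the 9 endothelial markers, 8 lay at or above 4 in each islet sample and 2 or 3 on the MIN6 arrays; Cdh5, Flt1 and Kdr were at or below 2.83 in MIN6. All 6 immune markers lay above 4 in both islet samples and none on any MIN6 array (0 of 6). Of the 8 stellate and mesenchymal markers, 3 lay at or above 4 in each islet sample and 0 on any MIN6 array. The summed level (log2) of the 4 markers of delta and pancreatic polypeptide cells was 17.0 in both islet samples and 9.49 to 9.78 in MIN6. That of the 2 alpha-cell markers was 16.3 in KO, 16.4 in WT and 12.7 to 13.4 in MIN6. Of the 4 Schwann and neural markers, 0 lay at 4 in islets. The part of these cells in the islet values was not tested. Among beta-cell markers, Ins2, Iapp, Pdx1, Nkx6-1 and Ucn3 lay between 10.2 and 16.2 on every array, whereas Slc2a2, the glucose transporter, lay at 2.52 to 3.84 in MIN6 and at 14.5 and 14.1 in KO and WT islets.

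Pcdh15, which joins Cdh23 in the tip links of hair cells, was measured in islets alone. It stood at 8.12 in KO and 8.20 in WT islets, and at 2.48 with AdGFP, 2.42 and 2.29 with AdmiR7a and 2.29 with AdmiR7b. The MIN6 values are near the lowest of the table, so the difference of -5.79 (log2, MIN6 minus islets) is limited by the background. Its partner Cdh23 had no value above 2.66 on any array. The other probe sets of Pcdh15 stayed at 2.17 in MIN6. In islets, 1 of them reached 3.21 in KO and 4.21 in WT, and the other stayed at 2.17. Pcdh1, a delta-group protocadherin of epithelia, was likewise measured in islets alone, at 4.59 in KO and 4.35 in WT against 2.33 to 2.36 in MIN6 (-2.12, MIN6 minus islets, again limited by the background).

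Of the delta group, Pcdh7, Pcdh9, Pcdh17 and Pcdh19 were higher in MIN6 than in islets, and Pcdh1 was higher in islets. Pcdh7, whose longer tail can bind protein phosphatase 1, lay between 6.40 and 6.73 on the MIN6 arrays and at 3.46 and 3.48 in KO and WT islets. Pcdh9 lay between 6.36 and 7.01 in MIN6 and at 4.63 and 4.35 in islets. Pcdh17, which takes part in the extension of grouped axons, had a MIN6 mean of 10.01 against 6.73 in islets, a difference of 3.28 (log2; 9.72-fold). Pcdh19, a gene whose loss causes epilepsy in girls and women, had a MIN6 mean of 7.85 against 3.45, a difference of 4.40; its second probe set had 8.06 against 2.42. The islet means of Pcdh7 and Pcdh19 lay under 4, so their differences are limited by the background. In the beta cluster, Pcdhb17 (-1.22, MIN6 minus islets) and Pcdhb22 (-2.41) were lower in MIN6, Pcdhb14 (1.84), Pcdhb15 (1.50) and Pcdhb20 (1.17) were higher, and the arrays of Pcdhb16 and Pcdhb21 overlapped.

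Promoters are shown for Pcdh15, Pcdh17 and Pcdh19, the first because it was measured in islets alone and the other two because they moved in opposite directions with miR-7. A promoter sequence was found for 9 members, all outside the clusters. Each window runs from 250 bases before to 50 after the start in RefSeq (GRCm38.p6), and capitals mark CGCT on either strand (CGCT or AGCG, which overlap as AGCGCT), the core of an element shared by promoters of the clusters.
Pcdh15, chr10:73821617-73821916, plus strand: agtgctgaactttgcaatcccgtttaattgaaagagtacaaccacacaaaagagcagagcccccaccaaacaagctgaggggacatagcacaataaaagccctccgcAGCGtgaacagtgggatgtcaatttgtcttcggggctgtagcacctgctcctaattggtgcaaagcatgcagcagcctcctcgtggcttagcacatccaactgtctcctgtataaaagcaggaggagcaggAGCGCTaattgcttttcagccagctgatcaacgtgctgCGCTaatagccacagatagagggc
Pcdh17, chr14:84443313-84443612, plus strand: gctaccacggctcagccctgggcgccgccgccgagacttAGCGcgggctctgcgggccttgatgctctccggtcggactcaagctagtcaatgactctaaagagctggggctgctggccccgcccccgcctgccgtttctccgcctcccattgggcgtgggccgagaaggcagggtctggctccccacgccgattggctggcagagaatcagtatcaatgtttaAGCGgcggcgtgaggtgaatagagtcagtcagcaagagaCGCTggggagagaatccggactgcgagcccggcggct
Pcdh19, chrX:133688944-133689243, minus strand: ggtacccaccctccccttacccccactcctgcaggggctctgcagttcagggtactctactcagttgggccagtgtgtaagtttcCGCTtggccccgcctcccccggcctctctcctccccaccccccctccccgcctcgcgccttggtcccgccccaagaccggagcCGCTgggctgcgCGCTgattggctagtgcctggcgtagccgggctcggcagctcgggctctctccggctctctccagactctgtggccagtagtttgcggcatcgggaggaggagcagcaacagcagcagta
The motif occurred 4 times in the Pcdh15 window and 3 times each in those of Pcdh17 and Pcdh19. All 9 members held it at least once, as did 63.7% of the 27025 genes with a window of the same length. Counted by window, the share was 61.8% of 32851. The G and C content was 50.7% for Pcdh15, 65.0% for Pcdh17 and 67.7% for Pcdh19, beside a median of 52.7% over all windows.

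The infections of MIN6 cells ask how raised miR-7 alters beta-cell transcripts. With the 3 miR-7 arrays pooled against AdGFP in limma, Pcdh19 rose and Pcdh17, Pcdhb17 and Pcdhb20 fell, 4 of 10 genes. A further gene, Pcdhb21, entered the test only through the AdGFP array, where it is high, and so had to differ. Its test is not used, and counts out of 11 include it. Genes of this kind were not removed from the shares over all genes given here and below. Over all 10367 genes tested, 26.2% passed at a Benjamini-Hochberg adjusted p under 0.05: 12.1% fell and 14.0% rose. The median difference was -0.49 over the 10 protocadherins and 0.06 over all genes. Every difference rests on the single AdGFP array, which stood 0.508 to 0.577 (SD of the log2 differences over genes) from each miR-7 array, against 0.196 between the AdmiR7a replicates. Leaving out AdmiR7a replicate 1, AdmiR7a replicate 2 or AdmiR7b each left 0 of the 11 genes (and 0 of 10367) past the threshold in limma.

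Pcdh19 stood at 7.03 with AdGFP, 8.05 and 8.08 with AdmiR7a and 8.24 with AdmiR7b. All 3 miR-7 arrays lay above AdGFP and close together. It rose by 1.09 ± 0.11 (log2, SE; limma adjusted p = 0.0136), or 2.13-fold. Another probe set of the gene gave 6.89 with AdGFP and 8.30, 8.53 and 8.55 with miR-7. The remaining probe set lay near the lowest value, at 2.17 with AdGFP and on both AdmiR7a arrays and 2.69 with AdmiR7b.

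Pcdh17 stood at 10.58 with AdGFP, 9.87 and 9.88 with AdmiR7a and 9.70 with AdmiR7b. All miR-7 arrays lay below AdGFP. It fell by 0.76 ± 0.11 (limma adjusted p = 0.0211), so AdGFP was 1.70-fold above the miR-7 arrays. The other probe set of Pcdh17 read 10.26 with AdGFP and 9.64, 9.66 and 9.68 with miR-7. Pcdh17 and Pcdh19, both of the delta-2 group, thus moved in opposite directions, each on 2 probe sets.

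Of the delta-1 genes, Pcdh7 and Pcdh9 were tested and did not pass, whereas Pcdh1 and Pcdh11x lay below 4 in MIN6 and were not tested. Pcdh9 stood at 6.36 with AdGFP and at 6.63, 7.01 and 6.94 with AdmiR7a replicate 1, AdmiR7a replicate 2 and AdmiR7b, a difference of 0.50 ± 0.18 (limma adjusted p = 0.111). Its second probe set went the other way, from 4.81 with AdGFP to 4.42, 4.66 and 4.19. Pcdh7 stood at 6.73 with AdGFP and 6.50, 6.40 and 6.62 with miR-7 (-0.23 ± 0.11; adjusted p = 0.206).

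In the beta cluster, and leaving Pcdhb21 aside, AdGFP held the highest MIN6 value for 5 of 6 genes, the exception being Pcdhb14, and 2 of the 6 fell. Over the 10 protocadherins, 7 had all 3 miR-7 arrays below AdGFP, against 33.2% of all genes. Pcdhb20 read 9.46 with AdGFP, 8.66 and 8.78 with AdmiR7a and 8.60 with AdmiR7b. It fell by 0.78 ± 0.10 (limma adjusted p = 0.0195). Pcdhb17 read 6.15 with AdGFP, 5.57 and 5.54 with AdmiR7a and 5.46 with AdmiR7b, and fell by 0.63 ± 0.08 (adjusted p = 0.0190).

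Pcdhb21 read 4.68 with AdGFP, 3.77 and 3.76 with AdmiR7a and 3.82 with AdmiR7b, a difference of -0.90 (log2). Its miR-7 values lay below 4, so this difference is limited by the background.

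The other beta genes did not pass the test. Pcdhb22 stood at 5.48 with AdGFP and 5.07, 5.22 and 5.13 with miR-7 (-0.34 ± 0.09; limma adjusted p = 0.0645). Pcdhb16 stood at 7.31 with AdGFP, 6.42 and 6.33 with AdmiR7a and 5.46 with AdmiR7b, a mean difference of -1.24 ± 0.44 (adjusted p = 0.113). The miR-7 arrays of Pcdhb16 spread widely, with AdmiR7b lowest. Pcdhb15 stood at 6.13 with AdGFP, 4.40 and 5.62 with AdmiR7a and 5.22 with AdmiR7b (-1.05 ± 0.51; adjusted p = 0.200), and there the AdmiR7a replicates differed from each other. Pcdhb14 stood at 6.46 with AdGFP and 6.57, 6.59 and 6.46 with miR-7 (0.08 ± 0.09; adjusted p = 0.548).

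**Figure D3:**
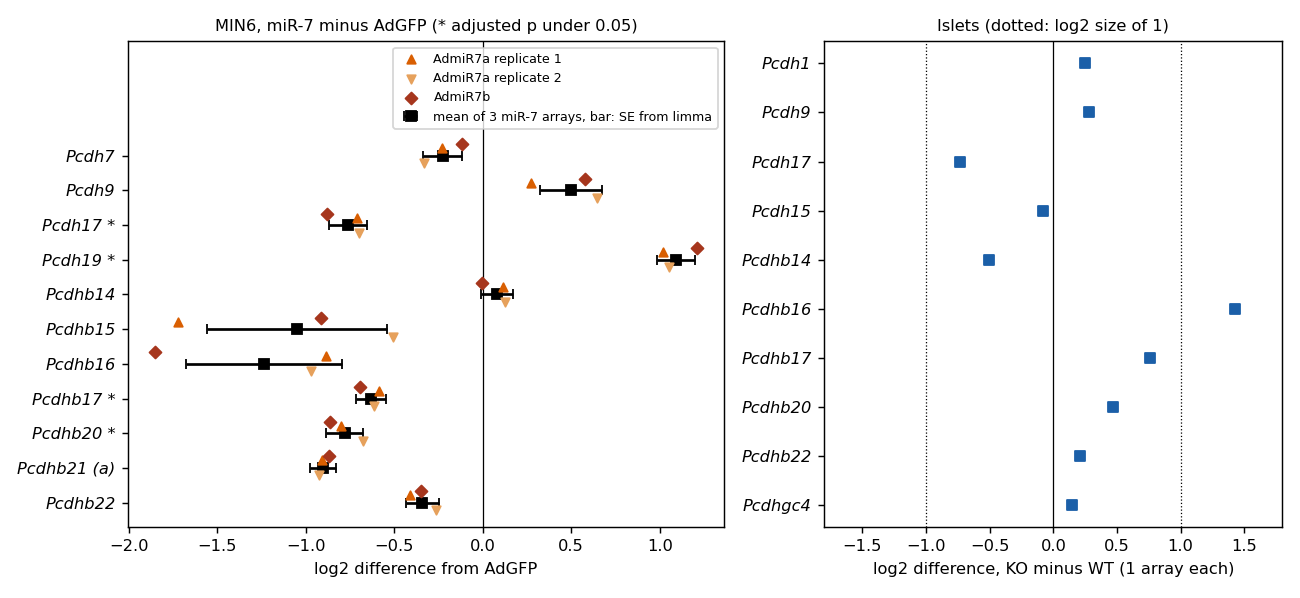
Left, log2 difference from AdGFP for the 11 genes measured in MIN6 cells: points show each miR-7 array, squares the mean of the 3 with the SE from limma, and a star an adjusted p under 0.05; (a) marks Pcdhb21, which entered only through AdGFP. Right, KO minus WT for the 10 genes measured in islets, 1 array per group. Pcdh19 (1.09) lies to the right on the left panel, all beta genes but Pcdhb14 lie to the left of 0, and on the right panel only Pcdhb16 (1.42) is past 1.

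The alpha cluster was read by probe sets that carry the symbols of many of its genes, so no single gene can be named from them. Of 6 probe sets with several alpha symbols, 3 carried all 14. The first read 10.39 with AdGFP and 10.76, 11.05 and 10.87 with miR-7. The second read 9.95 with AdGFP and 10.23, 10.25 and 10.30 with miR-7. The third read 8.43 with AdGFP and 8.95, 9.01 and 9.10 with miR-7. On each of the 3 the miR-7 arrays lay above AdGFP, by 0.50, 0.30 and 0.59 on average, which was not tested. These orders rest on the single AdGFP array. A probe set of 9 alpha symbols was mixed, at 5.14 with AdGFP and 5.05, 5.42 and 5.53 with miR-7. The remaining alpha probe sets had no value above 2.57. Of the gamma cluster, Pcdhgc4 stood at 3.77 with AdGFP, 4.02 on both AdmiR7a arrays and 3.79 with AdmiR7b, around the level of 4, and was not tested in MIN6.

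Against AdGFP, the AdmiR7a arrays taken without AdmiR7b gave no protocadherin past the threshold (0 of 11 in limma, and 0 of 10367 genes). At an unadjusted p under 0.05 were 5 of the 10 genes other than Pcdhb21, against 36.7% of all genes. The lowest adjusted p over all genes was 0.0666. That 0 became 6 of 12 genes with each array centred on its median (19.4% of all genes passed) and with quantile normalization (22.3%). Pcdhb21 was not left out of these counts. With a level of 6 (18.9%) or averaged probe sets (9.89%) the 0 became 4 of 7 genes, and Pcdhb21 was not tested there. With AdmiR7b, 2 of 11 genes were at least 1 (log2) from AdGFP, Pcdhb16 (-1.85) and Pcdh19 (1.21), against 8.18% of all genes; with 1 array per group there is no replicate check.

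AdmiR7b minus AdmiR7a asks whether the 2 microRNAs differ in effect. limma called 0 of the 11 protocadherins and 0 of 10367 genes, with 1 protocadherin and 5.76% of all genes at an unadjusted p under 0.05. That gene was Pcdhb16, at -0.92 ± 0.08 (SE; adjusted p = 0.739). For Pcdh17 the difference was -0.18 ± 0.07 and for Pcdh19 0.17 ± 0.07 (limma adjusted p = 0.739 for both). This fit has 1 residual degree of freedom, and a p that misses the threshold does not show that the vectors act alike.

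The KO islets show protocadherins where miR-7a2 is missing from beta cells. Of the 10 protocadherins measured there, Pcdhb16 alone was at least 1 (log2) apart, against 2.84% of 10553 genes. It stood at 6.19 in KO and 4.77 in WT, 1.42 higher in KO (2.68-fold). With 1 array per group no islet difference has a replicate check or a p-value. The other probe sets of Pcdhb16 were at or below 2.20 in islets, so the difference is seen on 1 probe set.

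Other beta genes also stood higher in KO. Pcdhb17 was at 7.28 in KO and 6.52 in WT, Pcdhb20 at 7.94 and 7.47, and Pcdhb22 at 7.74 and 7.53. Pcdhb21, below 4 in both islet samples, was at 3.82 in KO and 3.09 in WT. Pcdhb14 went the other way, at 4.43 in KO and 4.93 in WT, as did Pcdhb15 at 3.52 and 4.16, and these are the 2 genes read by _x_at and _s_at probe sets. Of the 5 beta genes that reached the level in islets, 4 were higher in KO (median 0.47), against 45.5% of all genes (median -0.02).

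Of the 7 protocadherins measured in both systems, 4 had every miR-7 array below AdGFP in MIN6 cells and KO above WT in islets, against 19.8% of the 9765 genes measured in both. They were Pcdhb16, Pcdhb17, Pcdhb20 and Pcdhb22. For Pcdhb17 the differences were -0.63 (miR-7 minus AdGFP) and 0.76 (KO minus WT). For Pcdhb20 they were -0.78 and 0.47, for Pcdhb22 -0.34 and 0.21, and for Pcdhb16 -1.24 and 1.42. On the probe set used, Pcdh17 (-0.76 and -0.73) lay below its control in both systems, as did Pcdhb15 (-1.05 and -0.64), whose islet mean is under 4. In islets the other probe set of Pcdh17 was higher in KO (4.73 against 3.89 in WT). The pattern was picked out after the values were seen and has no test.

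For Pcdh17 and Pcdh19 the probe sets differed in what they showed in islets. Pcdh17 stood at 6.36 in KO and 7.09 in WT on the probe set used (-0.73, KO minus WT). Its other probe set gave the opposite order, 4.73 in KO and 3.89 in WT. Pcdh19 stood at 2.74 in KO and 4.16 in WT, with a mean under 4, and its second probe set was at 2.39 and 2.45. For the remaining genes the 2 islet arrays were close: Pcdh9 was 0.28 higher in KO, Pcdh1 0.25 and Pcdhgc4 0.15, while Pcdh15 was at -0.08 and Pcdh7, whose mean was under 4, at -0.02 (KO minus WT). Pcdh12, an endothelial protocadherin named after its values were seen, was below 4 in both, at 2.62 in KO and 3.54 in WT. Beside it, the endothelial gene Pecam1 stood at 5.19 in KO and 6.30 in WT, while Cdh5 (7.81 and 7.68) and Kdr (8.46 and 8.44) were near equal. Esam (8.38 and 8.86), Tek (6.10 and 6.53), Plvap (9.68 and 9.87) and Flt1 (8.46 and 8.59) were also lower in KO. Eng was higher in KO (6.82 and 6.55), and Tie1 lay near the lowest value in both. The summed level of the 9 endothelial markers was 11.2 in KO and 11.3 in WT (log2). Their part in the islet differences was not tested.

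**Figure D4:**
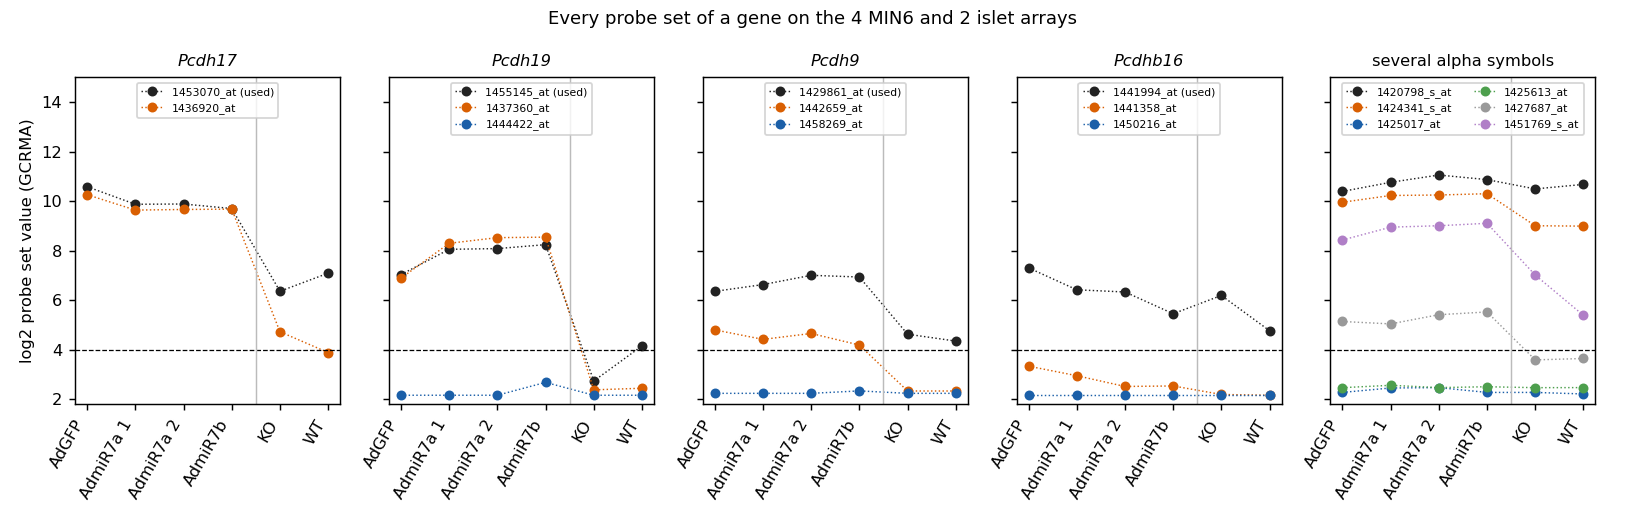
Log2 values of every probe set of Pcdh17, Pcdh19, Pcdh9 and Pcdhb16, and of the 6 probe sets with several alpha cluster symbols, on the 6 arrays; dotted lines only join the values of 1 probe set and the dashed line marks 4. In MIN6 cells both Pcdh17 probe sets are highest with AdGFP and 2 Pcdh19 probe sets are lowest with AdGFP, whereas in islets the Pcdh17 probe sets take opposite orders.

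Related adhesion genes were described from lists chosen with earlier results of these data known. Of 7 classical and type II cadherin genes tested in MIN6, 3 fell and 0 rose, against 12.1% and 14.0% of all genes (median -0.38, against 0.06). Cdh6 fell by 0.99 ± 0.07 (limma adjusted p = 0.0116), Cdh4 fell by 0.56 and Cdh8 fell by 0.38. The epithelial cadherin gene Cdh1 (0.27, adjusted p = 0.112) and the neural cadherin gene Cdh2 (0.31, adjusted p = 0.162), whose product pairs with protocadherin 19, did not pass. In islets 0 of 7 were at least 1 apart, against 2.84% of all genes, the background for the lists that follow too.

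Of 7 tested relatives with cadherin repeats, such as the Fat and Celsr genes, 2 fell and 0 rose (median -0.24). Over all genes, 12.1% fell and 14.0% rose. Celsr2, a seven-pass cadherin of planar polarity, fell by 1.20 ± 0.26 (limma adjusted p = 0.0442), and Cdhr1 fell by 0.39. In islets 3 of 10 were at least 1 apart. Celsr1 stood at 6.99 in KO and 5.35 in WT, Celsr2 at 4.70 and 6.09, and Cdhr2, named after its values were seen, at 2.90 and 5.59. Cdhr2 reached the level in islets only through the WT array, where it is high, and so had to differ. The count of 3 of 10 includes it, so its share cannot be set against that of all genes without this limit. Of 7 catenin genes, Jup rose by 0.70 and Ctnna2 rose by 0.65, and Ctnnal1 fell by 0.43 (median of the list -0.02). The same shares of all genes are the background for these calls. In islets Ctnna2 stood at 4.92 in KO and 6.13 in WT.

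Of 14 tested partners of protocadherins in the cell, 3 fell and 0 rose, against 12.1% and 14.0% of all genes (median -0.03). Wasf2, a subunit of the WAVE complex, fell by 1.21 ± 0.13 (limma adjusted p = 0.0143), the WAVE complex gene Abi2 fell by 0.81 and the kinase gene Fyn fell by 0.64. In islets Wasf1, another WAVE gene, stood at 7.23 in KO and 6.13 in WT and was the only one of 15 at least 1 apart. Of 14 genes that act in promoter choice at the clusters, among them Ctcf, the cohesin genes and Smchd1, limma called 0 (median -0.14). Over all genes it called 26.2%. Of the 14, 4 had an unadjusted p under 0.05, and 0 were at least 1 apart in islets.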

How the data were processed

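The authors deposited log2 probe set values made with GCRMA, per the submitters' processing notes, which also name the affy package, without versions. GCRMA corrects the background from probe sequence and normalizes by quantiles, so a change shared by most genes would be removed. Whether other arrays were normalized together with these 6 is not given in the sources used here. Groups came from the sample titles.

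Of 45101 probe sets, 34958 carried 1 gene symbol, 932 several and 9211 none, and no gene was named from a probe set with several. The symbols of all 62 protocadherin probe sets equalled the RefSeq symbol of their Entrez identifier (GRCm38.p6). The authors' log2 values were used as deposited. Every gene took the probe set with the highest mean over 6 arrays. Genes with a mean of at least 4 in MIN6 entered limma 3.58.1 (R 4.3.3), two-sided, with Benjamini-Hochberg adjustment over all 10367 genes. The main fit pooled AdmiR7a and AdmiR7b against AdGFP, and a second fit had a mean per vector. Both take the spread of the single AdGFP array to equal that of the others. The limma step was checked on simulated data with known changes. The simulated AdGFP array had the same spread as the others, drawn from the AdmiR7a replicates. The check therefore does not bear on the lone AdGFP array of the data. The number of arrays limits the precision. Groups of 1 array were compared by a log2 size of 1. The members and lists were chosen with earlier results of these data known. All members that reached the level were named, and of other lists up to 4 genes that passed and those at least 1 apart in islets with the higher array at 6 or more.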

Additional observations from a re-analysis of the deposited data

Results flagged for a closer look

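Among probe sets that the comparisons did not use, 2 stood at least 1 (log2) above their control array. The second probe set of Pcdh19 was 1.57 higher on the miR-7 arrays than on AdGFP. A probe set carrying the symbols of all 14 alpha cluster genes was 1.62 higher in KO than in WT islets (7.02 against 5.39), while the other 2 such probe sets stood at -0.18 and 0.02 (KO minus WT). With 1 array per group this has no replicate check. Another 3 unused protocadherin probe sets stood at least 1 below their control: those of Pcdh20 (-1.13) and Pcdh7 (-1.02) on the miR-7 arrays against AdGFP, with every value under 4, and one of Pcdh15 in KO (3.21) against WT (4.21).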

How the results depend on the processing

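Leaving out 1 miR-7 array at a time gave 0 to 0 protocadherins past the threshold (and 0 genes in all) in the pooled fit in place of 5, Pcdhb21 included. The pooled fit called 3 with a level of 6, where 33.2% of all genes passed, and 3 with no filter, where 5.18% did, beside 26.2% as reported. It called 4 or 5, with 25.0% to 30.6% of all genes passing, with averaged probe sets, probe sets chosen within the system, centring, quantile normalization, an intensity trend, or, an alternative chosen after seeing the data, without probe sets of mixed class (_s_at, _x_at, _a_at or _f_at). Without a filter, none of Pcdh17, Pcdh19, Pcdhb17 and Pcdhb20 passed in the pooled fit. The genes called there were Pcdhb21, whose test is not used, and others with a MIN6 mean under 4. No tested protocadherin changed direction under these alternatives while past the threshold. For AdmiR7a against AdGFP, limma called 6 with centring and 6 with quantile normalization, in place of 0. It called 4 with averaged probe sets, 4 with a level of 6 and 1 without a filter. Pcdhb21 was not left out of these counts where it was tested. Over all genes limma called 2020, 2324, 967, 1744 and 323 under the same settings, also in place of 0. For AdmiR7b against AdGFP, averaged probe sets left 1 gene past the size in place of 2, and a limma contrast that borrows the AdmiR7a spread called 0. In islets the count past the size was 0 with a level of 6, 0 with averaged probe sets and 2 without a filter, in place of 1. Genes that reached the level in MIN6 numbered 7 at a level of 6 and 7 with averaged probe sets in place of 11, and in islets 5 at a level of 6 in place of 10. The causes were not tested, except that a level of 6 leaves fewer genes. The count for MIN6 against islets lay between 8 and 13. No paired analysis was possible because the groups compared share fewer than 2 replicate numbers. Depth does not apply to arrays; signals near the lowest value limit Pcdh1, Pcdh15, Pcdhb21 and Pcdhgc4, and the islet values of Pcdh7, Pcdh19 and Pcdhb15.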
